A study of Mus musculus with 6 samples.

Results

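The insulin-like growth factor (IGF) binding proteins Igfbp2 to Igfbp7 were followed together with the ligand gene Igf1 and the receptor gene Igf1r in RNA of mouse molars. The 8 genes were taken by symbol, and all 8 were found among the 24972 genes of both deposited tables. RNA came from maxillary first molars collected on postnatal day 1, in 6 libraries of 3 genotypes. The genotypes were Ascl5Mut/Mut, with both copies of Ascl5 mutated, Ascl5Mut/WT, with 1 mutated copy, and the wild-type control Ascl5WT/WT, with 2 libraries each. The product of Ascl5 is a transcription factor of the basic helix-loop-helix class. The labels do not state the nature of the mutation, the mouse strain, or how many animals or teeth stand behind a library.

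Igfbp5 stood about 4-fold higher in both mutant genotypes than in Ascl5WT/WT, and it was the only member to pass the test. With all libraries, it passed in 6 of 11 alternative settings in Ascl5Mut/Mut and 9 of 11 in Ascl5Mut/WT. The reported settings were chosen after 15 combinations had been viewed, and the members with earlier results of these data known. Igf1 was also higher in both mutant libraries of each comparison than in both wild-type libraries, but at about 1 to 13 estimated reads per library this difference did not pass. Igfbp3, the other strongly represented binding protein, overlapped between the groups. Igfbp2, Igfbp4, Igfbp7 and Igf1r rested on few reads, and Igfbp6 was listed at 0 in every library.

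IGFs are secreted peptides that signal through the tyrosine kinase receptor Igf1r and promote growth, survival and differentiation. The binding proteins hold IGFs in the extracellular fluid and matrix, where they can prolong the life of the ligand, keep it from the receptor or release it after proteolysis. Igfbp7 binds IGFs weakly and is often counted as a related protein. In developing teeth and jaw bone, IGF signalling is known to act on both dental epithelium and mesenchyme.

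The values are the authors' normalized gene counts, on a linear scale, in 2 tables that each join the 2 Ascl5WT/WT libraries to the 2 libraries of 1 mutant genotype. Library totals were 12304814 to 13118122 normalized counts, and low values clustered at steps of 108.7 to 139.8, which appear to be worth 1 read. By that step a library held an estimated 90477 to 117386 counted reads, and a value of 0 allows up to 3 reads, or 326 to 419 normalized counts. These limits cover counting error only. Zeros filled 66.6% to 71.0% of each library, and Ascl5 was 0 in all 6, so the mutated gene gives no check of the labels. Both comparisons share the wild-type libraries, and no test was made between the mutant genotypes. Because the labels do not say that libraries came from separate animals, p-values measure only the spread between these samples, which may be technical.

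Igfbp5 lies on chromosome 1, bases 72857932 to 72874884 of GRCm38, on the minus strand, and its annotated exons cover 6006 bases. It encodes a binding protein that attaches to extracellular matrix and is known from bone and connective tissue. Because the mutated factor is of the helix-loop-helix class, the lines that follow show the bases directly before the transcript start of Igfbp5, and, for contrast, of Igfbp3, the family's other abundant member. They are from RefSeq on GRCm38.p6, written 5′ to 3′ on the gene's strand, with annotated exon bases left out. Capitals mark the E-box letters CANNTG, the motif that basic helix-loop-helix factors as a class can bind, read on both strands, which for this palindrome give the same positions.
Igfbp5, chr1:72874885-72875115, minus strand: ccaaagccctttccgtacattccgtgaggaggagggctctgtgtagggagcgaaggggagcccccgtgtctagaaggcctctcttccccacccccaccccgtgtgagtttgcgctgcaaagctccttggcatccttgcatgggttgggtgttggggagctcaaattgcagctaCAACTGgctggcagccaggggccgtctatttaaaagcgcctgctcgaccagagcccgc
Igfbp3, chr11:7213924-7214173, minus strand: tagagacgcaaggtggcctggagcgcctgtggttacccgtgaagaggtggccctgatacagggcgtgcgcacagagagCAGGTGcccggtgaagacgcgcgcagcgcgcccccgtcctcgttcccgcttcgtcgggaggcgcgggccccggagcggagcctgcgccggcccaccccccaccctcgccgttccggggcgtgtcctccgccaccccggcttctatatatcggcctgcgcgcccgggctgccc

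The Igfbp5 stretch of 231 bases held 1 CANNTG, spelled CAACTG, and the Igfbp3 stretch of 250 bases also held 1, spelled CAGGTG. Such letters are common. Of 32851 RefSeq promoters with the same window of 250 bases before the start, 66.2% held at least 1, and 13.0% held the narrower form CAGCTG, which is contained in CANNTG. All 8 members had a promoter entry. In the full 250-base window, Igfbp2, Igfbp4 and Igfbp6 also held a CANNTG, and Igfbp7 and Igf1r held none. The window of Igf1 held 1 CAGCTG but lies within annotated exon and is not printed. A match is a description of letters and not a binding site.

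In Ascl5Mut/Mut molars Igfbp5 had 38667 and 43801 normalized counts, against 7627 and 10872 in Ascl5WT/WT molars. The lower of the mutant libraries was above the higher wild-type library by more than the spread within either genotype. The means were 41234 ± 3630 in Ascl5Mut/Mut and 9249 ± 2295 in Ascl5WT/WT (SD, n = 2 each), a ratio of 4.46. On the log2(normalized count + 120) scale, where 120 is about 1 read, Igfbp5 rose by 2.16 (SE 0.33, 95% interval 1.41 to 2.91), with a limma adjusted p of 0.0218 over the 2336 genes that averaged at least 1000 normalized counts.

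In Ascl5Mut/WT molars Igfbp5 had 35399 and 35736 normalized counts, against 7765 and 11322 for the same wild-type libraries in that table. The mutant libraries lay close together and far above both wild-type libraries. The means were 35567 ± 238 in Ascl5Mut/WT and 9543 ± 2515 in Ascl5WT/WT (SD, n = 2 each), a ratio of 3.73. Igfbp5 rose by 1.91 on the log2 scale (SE 0.35, 95% interval 1.19 to 2.63), with a limma adjusted p of 0.0068 over 2370 genes. In bulk tissue, more cells that make Igfbp5 and more Igfbp5 RNA per cell cannot be told apart.

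**Figure D1:**
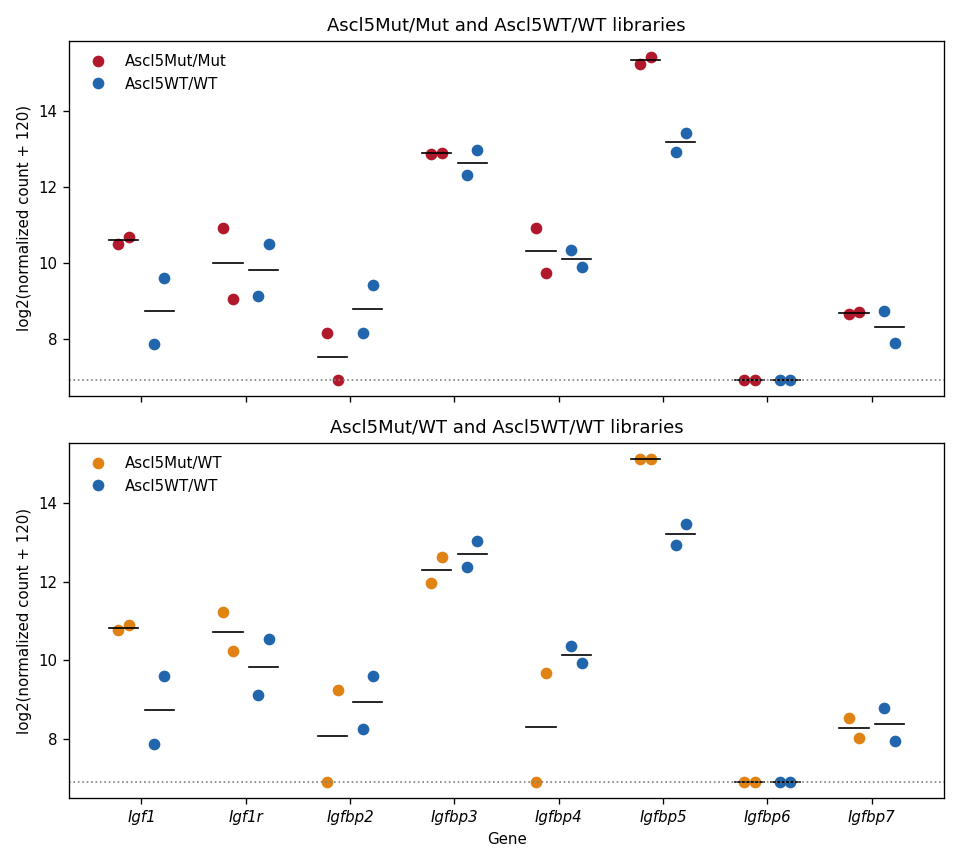
Each point is 1 library, plotted as log2(normalized count + 120) for the 8 genes, with Ascl5Mut/Mut (red, top panel) or Ascl5Mut/WT (orange, bottom panel) left of Ascl5WT/WT (blue). Bars are group means on this scale and the dotted line is a value of 0. Igfbp5 in mutant libraries, at 35399 to 43801 normalized counts, stands apart from its wild-type values of 7627 to 11322, and Igfbp6 lies on the dotted line.

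Of the 3 members tested in the Ascl5Mut/Mut comparison, Igfbp5 was the 1 called, where 0.856% of all 2336 genes tested were called and 0.557% were called higher. Among the 4 tested in the Ascl5Mut/WT comparison it was again the 1 called, where 0.549% of 2370 genes were called and 0.338% were called higher. By p-value Igfbp5 was 8th of the genes tested in Ascl5Mut/Mut and 7th in Ascl5Mut/WT. By fold change it was 82nd in Ascl5Mut/WT and further down the order in Ascl5Mut/Mut. By its Ascl5WT/WT mean it was 174th and 175th, well inside the range of strongly represented genes. The estimated reads behind it were 277 and 322 in Ascl5Mut/Mut against 70.2 and 90.7 in Ascl5WT/WT, and 279 and 261 in Ascl5Mut/WT against 70.3 and 90.9 in Ascl5WT/WT.

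Igfbp5 was higher in mutant molars under every setting tried. This direction was fixed in advance, because both mutant libraries of each table were far above both wild-type libraries. The call of Igfbp5 did not hold under every setting. In Ascl5Mut/Mut the log2 fold change was 1.91 to 2.41 with 1 library left out, and the call did not hold after leaving out Ascl5Mut/Mut replicate 1 (limma adjusted p = 0.333), Ascl5Mut/Mut replicate 2 (0.312) or Ascl5WT/WT replicate 1 (0.0974). In Ascl5Mut/WT it was 1.64 to 2.18, and the call was lost without Ascl5Mut/WT replicate 1 (limma adjusted p = 0.679) or replicate 2 (0.841). With 1 library left, a genotype's spread is assumed to be that of the other genotype. With 2 libraries a side, the smallest p an exact permutation test allows is 0.33, so none was run.

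**Figure D2:**
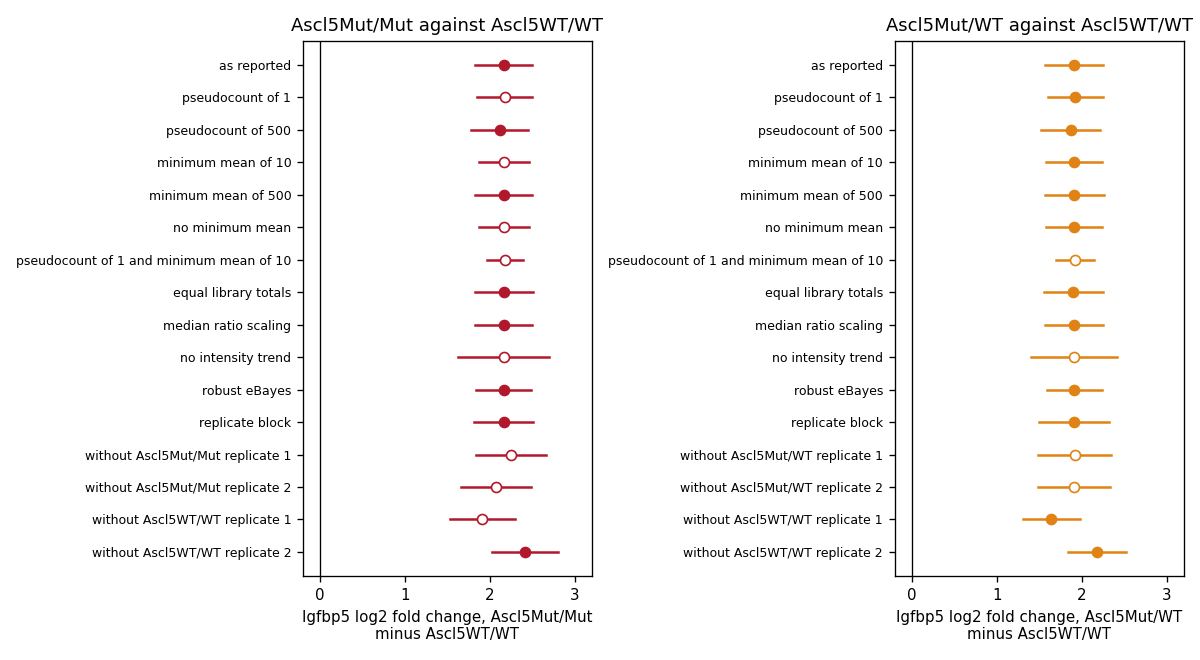
Log2 fold change of Igfbp5 (mutant minus Ascl5WT/WT) with its standard error under each setting, for Ascl5Mut/Mut (left) and Ascl5Mut/WT (right). Filled points have a limma adjusted p under 0.05 and open points do not. All points lie between 1.64 and 2.41, and the open ones include every fit that leaves out a mutant library.

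Igfbp3 is the main carrier of IGFs in blood and is also made in connective tissues. It lies on chromosome 11 at 7206086 to 7213923 (GRCm38, minus strand), with 3130 exon bases. Igfbp3 had 7367 and 7418 normalized counts in Ascl5Mut/Mut molars, against 4981 and 7818 in Ascl5WT/WT molars. The mutant values fell between the wild-type values. Its log2 fold change was 0.24 (SE 0.43, 95% interval -0.72 to 1.20, limma adjusted p = 0.862). In the other table Igfbp3 had 3902 and 6277 in Ascl5Mut/WT molars, against 5183 and 8321 in Ascl5WT/WT molars, and again the groups overlapped. The log2 fold change there was -0.40 (SE 0.46, 95% interval -1.36 to 0.56, limma adjusted p = 0.798). Both intervals include 0 and end below the Igfbp5 log2 fold change of the same table.

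Igfbp4, a binding protein that mostly holds IGF action back and is cut by the protease Pappa, lies on chromosome 11 at 99041244 to 99054392 (GRCm38, plus strand). Igfbp4 had 1798 and 723 normalized counts in Ascl5Mut/Mut molars, against 1170 and 820 in Ascl5WT/WT molars. The groups overlapped, with a log2 fold change of 0.21 (SE 0.91, 95% interval -1.82 to 2.23, limma adjusted p = 0.958). In the other table its Ascl5Mut/WT values were 0 and 705, against 1199 and 860 for Ascl5WT/WT. Here both mutant libraries were below both wild-type libraries, at a mean under 1000. With the minimum mean lowered to 500, the log2 fold change was -1.85 (SE 1.25, limma adjusted p = 0.719, where 0.469% of genes were called). At that minimum both mutant libraries were below both wild-type libraries for 18.9% of 4052 genes.

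Igfbp2, Igfbp6 and Igfbp7 were near or below what these libraries can resolve. Igfbp2, a binding protein with preference for Igf2, had 161 and 0 normalized counts in Ascl5Mut/Mut molars, against 161 and 564 for Ascl5WT/WT. In the other table it had 0 and 491 in Ascl5Mut/WT molars, against 185 and 664 for Ascl5WT/WT. Igfbp2 (chromosome 1, 72824503 to 72852474, plus strand, GRCm38) is the neighbour of Igfbp5 and ends 5457 bases from it, the genes facing each other tail to tail. Its values overlapped between genotypes in both comparisons. Igfbp7 had 282 and 299 in Ascl5Mut/Mut, against 307 and 116 in Ascl5WT/WT, and 248 and 140 in Ascl5Mut/WT, against 327 and 126 in Ascl5WT/WT, which is about 1 to 3 reads each. Igfbp6, which also prefers Igf2, was listed at 0 in all libraries. A difference in these 3 genes was not detectable at this depth.

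Igf1, the ligand that growth hormone raises in many tissues, lies on chromosome 10 at 87858265 to 87937042 (GRCm38, plus strand). Igf1 had 1332 and 1526 normalized counts in Ascl5Mut/Mut molars, against 113 and 648 in Ascl5WT/WT molars. Both mutant libraries were above both wild-type libraries, and the wild-type libraries differed more from each other than the mutant ones did. The ratio of means was 3.75, on an estimated 9.53 and 11.2 reads in Ascl5Mut/Mut against 1.04 and 5.40 in Ascl5WT/WT. Its mean was under 1000, and at a minimum mean of 500 the log2 fold change was 1.87 (limma adjusted p = 0.578). At that minimum 0.248% of 4031 genes were called, and both mutant libraries were above both wild-type libraries for 21.2%.

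In Ascl5Mut/WT molars Igf1 had 1623 and 1782 normalized counts, against 113 and 663 in Ascl5WT/WT molars. Here it was tested, having reached a mean of 1000 through its mutant libraries. Its log2 fold change was 2.09 (SE 1.28, 95% interval -0.60 to 4.78, limma adjusted p = 0.617). Igf1 and Igfbp5 were the 2 of 8 members that were higher in both mutant libraries than in both wild-type libraries in each comparison. Within a single comparison such separation was common, found upwards for 22% of the genes tested in Ascl5Mut/Mut and 21.1% in Ascl5Mut/WT. The share separating upwards in both was computed only with a ratio of means past 2-fold in each, which both members also had. It was 4.4% of the 11438 genes above 0 in each table. The comparisons share their wild-type libraries, and the members were chosen with earlier results of these data known.

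Igf1r, the receptor, lies on chromosome 7 at 67952827 to 68233668 (GRCm38, plus strand). Igf1r had 1819 and 408 normalized counts in Ascl5Mut/Mut molars, against 436 and 1323 in Ascl5WT/WT molars. The replicates of each genotype differed by about 3-fold or more and the groups overlapped. With a mean just under 1000 it was not tested, and at a minimum mean of 500 the log2 fold change was 0.18 (limma adjusted p = 0.960). In the other table Igf1r had 2276 and 1096 in Ascl5Mut/WT molars, against 442 and 1373 in Ascl5WT/WT molars, with overlap. The log2 fold change was 0.90 (SE 0.88, 95% interval -0.94 to 2.73, limma adjusted p = 0.768).

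**Figure D3:**
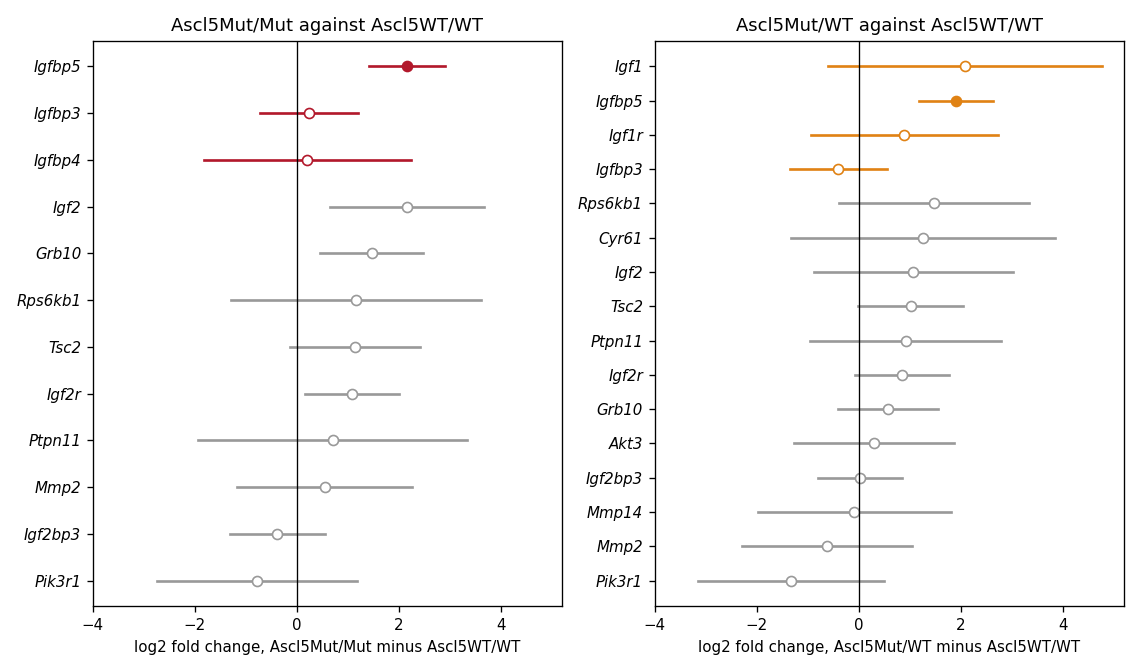
Log2 fold changes with 95% intervals of the members that reached a mean of 1000 (coloured, top) and of other IGF pathway genes that did (grey), for Ascl5Mut/Mut (left) and Ascl5Mut/WT (right) minus Ascl5WT/WT. Filled points have a limma adjusted p under 0.05. Igfbp5 is the filled point in each panel, at 2.16 and 1.91, and the intervals of the other members include 0.

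Levels of different genes were compared per kilobase of annotated exon. In Ascl5Mut/Mut molars Igfbp5 led the family at 6865 ± 604 normalized counts per kilobase, with Igfbp3 next at 2362 ± 11.7 (SD, n = 2 each). In Ascl5WT/WT molars of that table Igfbp3 was at 2045 ± 641 and Igfbp5 at 1540 ± 382 (SD, n = 2 each), and these levels did not differ beyond their spread. Ascl5Mut/WT molars had Igfbp5 at 5922 ± 39.6 and Igfbp3 at 1626 ± 536 per kilobase, against 1589 ± 419 and 2157 ± 709 in Ascl5WT/WT (SD, n = 2 each). Igfbp5 was thus above Igfbp3 in every mutant library, and below it on average in Ascl5WT/WT, within the spread. All other members were far lower, with group means of at most 285 per kilobase in any genotype. Among them, Igfbp7 was above Igf1 and Igf1 above Igf1r in both Ascl5Mut/Mut libraries. Igfbp7 was above Igf1r in both Ascl5WT/WT libraries of each table. Igfbp7 rested on an estimated 2.02 and 2.20 reads in Ascl5Mut/Mut and 2.82 and 0.96 in Ascl5WT/WT of that table. These are within what a 0 allows, so the place of Igfbp7 is not resolved. The other neighbours in the order of these lower members overlapped or were at 0, including every such pair in Ascl5Mut/WT.

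As a share of the summed per-kilobase level of Igfbp2 to Igfbp7, Igfbp5 made up 67.6% and 72.4% in Ascl5Mut/Mut molars, against 36.6% and 37.0% in Ascl5WT/WT molars. In the other table the share was 80.2% and 70.0% in Ascl5Mut/WT molars, against 36.0% and 36.2% in Ascl5WT/WT molars. The remaining binding proteins summed to 3081 and 2781 per kilobase in Ascl5Mut/Mut, against 2198 and 3085 in Ascl5WT/WT. They summed to 1452 and 2547 in Ascl5Mut/WT, against 2298 and 3317 in Ascl5WT/WT. Without Igfbp5, the family's sum therefore overlapped between mutant and wild-type molars in both comparisons.

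**Figure D4:**
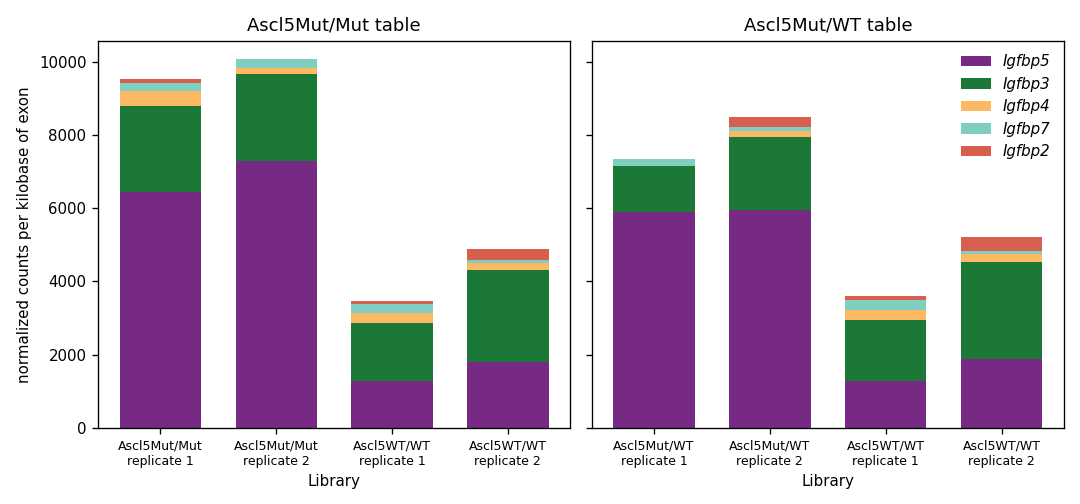
Stacked bars give the normalized counts per kilobase of exon of the binding protein genes in each library, for the Ascl5Mut/Mut table (left) and the Ascl5Mut/WT table (right), with mutant libraries left of Ascl5WT/WT. Igfbp6 is 0 everywhere. The Igfbp5 segment makes up 67.6% to 80.2% of the mutant bars and 36.0% to 37.0% of the wild-type bars.

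The wider IGF pathway was read from a list of 66 other genes, all in the tables, of which 11 were listed at 0 in all libraries of a table. In Ascl5Mut/Mut 9 of them were tested and 0 were called by limma, with 3 at an unadjusted p under 0.05, beside 11.2% of all genes tested. In Ascl5Mut/WT 12 were tested and 0 were called, with 0 at an unadjusted p under 0.05, beside 8.73% of all genes. The median log2 fold change of the tested list was 1.08 in Ascl5Mut/Mut, beside -0.02 for all genes tested, and 0.72 in Ascl5Mut/WT, beside 0.04. These medians lean on the minimum mean, which Igf2 and Rps6kb1, and in Ascl5Mut/WT also Cyr61, reached through their mutant libraries, and Pik3r1 in Ascl5Mut/WT through its wild-type libraries. Where both genotypes averaged 1000 or more, a rule set after these values were seen, the list median was 0.70 over 7 genes in Ascl5Mut/Mut, beside -0.06 for all such genes. In Ascl5Mut/WT it was 0.44 over 8 genes, beside 0.05. The fold change was above 0 for 5 of those 7 genes, beside 47.5% of all such genes, and for 6 of those 8, beside 52.9%.

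Of the ligands and receptors on that list, Igf2, the fetal growth factor, had 4052 and 3959 normalized counts in Ascl5Mut/Mut molars, against 477 and 1315 in Ascl5WT/WT molars. Its log2 fold change was 2.16 (SE 0.68, limma adjusted p = 0.257). Igf2 had 1561 and 1522 in Ascl5Mut/WT molars, against 391 and 1103 in Ascl5WT/WT molars (log2 fold change 1.07, limma adjusted p = 0.744). Both mutant libraries of each table stood above both wild-type libraries. The Ascl5WT/WT values of Igf2 in the Ascl5Mut/WT table were 0.820 and 0.839 times those in the other table, where the median gene had 1.018 and 1.041. Of the members, Igfbp2 (1.151 and 1.177) and Igfbp7 (1.064 and 1.088) lay above the 95th percentile of all genes, 1.041 and 1.065, and Igfbp5 was at the median. The step that scaled these genes differently is not stated.

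Igf2r, which takes up and clears Igf2, had 9606 and 11146 in Ascl5Mut/Mut, against 4352 and 5363 in Ascl5WT/WT (limma adjusted p = 0.366). It had 12432 and 6682 in Ascl5Mut/WT, against 4440 and 5597 in Ascl5WT/WT (limma adjusted p = 0.590). The groups separated upwards in both comparisons without passing the test. Insr, the insulin receptor, had 421 and 269 in Ascl5Mut/Mut and 380 and 675 in Ascl5Mut/WT, against about 1 read in each wild-type library.

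Among the intracellular members, Grb10, an adaptor that restrains the receptors, had 12661 and 14858 in Ascl5Mut/Mut, against 3390 and 7027 in Ascl5WT/WT (log2 fold change 1.47, SE 0.45, limma adjusted p = 0.246). Grb10 had 9465 and 6068 in Ascl5Mut/WT, against 3450 and 7314 in Ascl5WT/WT, and there the groups overlapped. Tsc2, a brake on mTOR, had 10059 and 5126 in Ascl5Mut/Mut, against 5029 and 2000 in Ascl5WT/WT (limma adjusted p = 0.503). Tsc2 had 6834 and 6666 in Ascl5Mut/WT, against 5111 and 2079 in Ascl5WT/WT (limma adjusted p = 0.566). Igf2bp3, an RNA-binding protein, had 5305 and 7485 in Ascl5Mut/Mut, against 7568 and 9000.4 in Ascl5WT/WT (limma adjusted p = 0.756), and its groups overlapped in the other table. Outside the intracellular group, Mmp2, a protease that can cut binding proteins, overlapped between groups in both comparisons.

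By their listed values, 8 of the 53 list genes above 0 in each table had a ratio of means past 2-fold and no overlap in both comparisons. Higher in mutants were 7 of them, Igf2, Insr, Sos1, Pik3r2, Rptor, Ptpn1 and Ctgf, beside 4.4% of the 11438 genes above 0 in each table. Lower was 1, Foxo3, beside 5.3%. Igf2 was the 1 of these 8 that reached the test in both comparisons, where it was not called. The comparisons share their wild-type libraries, and for the 7 others the wild-type values, or for Foxo3 the mutant values, are within the 326 to 419 normalized counts that a 0 allows, so the size of their folds is not resolved. Ctgf, a matrix-associated protein with a domain like that of the binding proteins, had 1270 and 1236 in Ascl5Mut/Mut, against 107 and 0 in Ascl5WT/WT. It had 633 and 277 in Ascl5Mut/WT, against 109 and 0 for Ascl5WT/WT. Sos1, which couples receptors to Ras, had 1111 and 1203 in Ascl5Mut/Mut, against 108 and 123 in Ascl5WT/WT, and 252 and 403 in Ascl5Mut/WT, against 110 and 128 in Ascl5WT/WT. Foxo3, a transcription factor that IGF signalling keeps out of the nucleus, had 144 and 0 in Ascl5Mut/Mut, against 535 and 475 in Ascl5WT/WT. It had 129 and 0 in Ascl5Mut/WT, against 546 and 496 in Ascl5WT/WT. Pik3r2 and Ptpn1 rested on similarly few reads, Rptor on about 1 read or none in every library, and Ptpn1 was listed at 0 in both wild-type libraries.

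The genes whose profile over the 8 library columns was most like that of Igfbp5 were, of 2029 compared, Mas1, Fchsd2, Fbxl14, 1700109K24Rik and Zdhhc17. Likeness was the root mean square difference of log2(normalized count + 120), each profile centred on the Ascl5WT/WT mean of its table, and ran from 0.18 for Mas1 to 0.36 for Zdhhc17. Mas1, a receptor for angiotensin fragments, had 12993 and 17306 in Ascl5Mut/Mut, against 2733 and 3847 in Ascl5WT/WT. It had 16224 and 16292 in Ascl5Mut/WT, against 2789 and 4015 in Ascl5WT/WT. These genes were picked for their values, which are a description with no test, and the wild-type columns of both tables come from the same libraries.

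**Figure D5:**
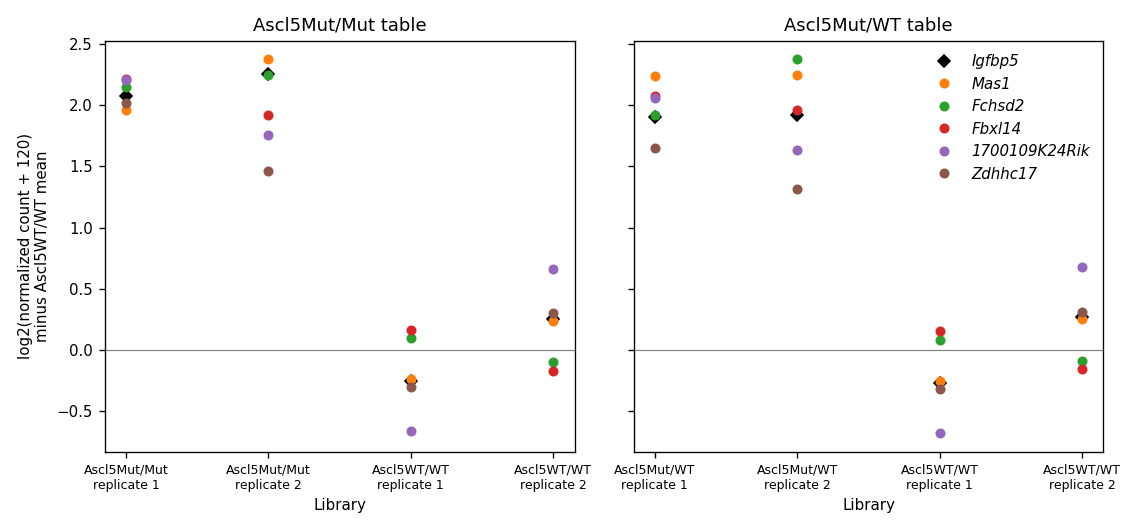
Log2(normalized count + 120) minus the Ascl5WT/WT mean of the table for Igfbp5 (black diamonds) and the 5 genes most like it (coloured points), per library, in the Ascl5Mut/Mut table (left) and the Ascl5Mut/WT table (right). All 6 genes lie well above 0 in the mutant libraries. The wild-type libraries lie around 0, closely for Mas1 and most widely for 1700109K24Rik, whose wild-type values were 3028 and 7755 normalized counts in the first table.

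Summed marker genes of several cell types, both of the molar itself and of surrounding tissue, differed between genotypes. Beside the counts of separating markers given below, upward separation held for 22% of genes tested in Ascl5Mut/Mut and 21.1% in Ascl5Mut/WT. Downward separation held for 18.9% of genes averaging at least 500 in Ascl5Mut/WT. For Ascl5Mut/Mut no downward share over all genes was computed, so its downward counts stand without one. Many markers averaged under 1000, where these shares need not hold. The 9 osteoclast markers summed to 17463 and 11955 normalized counts in Ascl5Mut/Mut against 539 and 120 in Ascl5WT/WT, and to 8722 and 2169 in Ascl5Mut/WT against 552 and 126 in Ascl5WT/WT, with 4 and 2 of them separating upwards and Calcr, Dcstamp, Ocstamp and Oscar listed at 0. The 13 osteoblast and bone matrix markers summed to 145508 and 88393 in Ascl5Mut/Mut against 23801 and 56175 in Ascl5WT/WT, with 9 higher and 1 lower. In the other table the bone sums overlapped, at 126314 and 54624 in Ascl5Mut/WT against 24149 and 58213 in Ascl5WT/WT, with 7 higher and 0 lower. The 13 keratinized oral epithelium markers in the tables summed to 21197 and 135670 in Ascl5Mut/Mut against 2902 and 658 in Ascl5WT/WT, and to 15461 and 53484 in Ascl5Mut/WT against 2964 and 685 in Ascl5WT/WT, with 10 and 7 higher and Ivl and Sprr1a listed at 0.

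The 12 dental follicle markers summed to 21503 and 16504 in Ascl5Mut/Mut against 10992 and 6219 in Ascl5WT/WT, with 2 higher and 2 lower, and overlapped in Ascl5Mut/WT at 11008 and 11021 against 11123 and 6426 in Ascl5WT/WT. Odontoblast sums of 7 markers were 3639 and 3746 in Ascl5Mut/Mut against 3291 and 1179 in Ascl5WT/WT, and 16192 and 13007 in Ascl5Mut/WT against 3327 and 1218 in Ascl5WT/WT, with 2 and 3 higher and Notum and Wnt10a listed at 0 in the first table. Of the 9 dental papilla markers 1, Dlx1, separated downwards in each comparison and made up most of the Ascl5WT/WT sums, while 3 were listed at 0 in each table. The papilla sums were 3189 and 1814 in Ascl5Mut/Mut against 49872 and 54776 in Ascl5WT/WT, and 7463 and 3052 in Ascl5Mut/WT against 50855 and 57062 in Ascl5WT/WT, with Crym and Fgf3 among the genes at 0 in both tables. Dental epithelium sums were lower in Ascl5Mut/Mut, at 8655 and 29512 against 42959 and 32302 in Ascl5WT/WT with Amelx listed at 0, and overlapped in Ascl5Mut/WT. Of its 11 markers, 4 separated downwards and 0 upwards in Ascl5Mut/Mut, and 1 downwards and 2 upwards in Ascl5Mut/WT. The 6 Schwann cell markers summed to 5300.3 and 1269 in Ascl5Mut/Mut against 215 and 241 in Ascl5WT/WT, and to 753 and 406 in Ascl5Mut/WT against 223 and 251 in Ascl5WT/WT. Upward separation held for 2 Schwann cell markers in Ascl5Mut/Mut and 1 in Ascl5Mut/WT, and downward separation for 0. Endothelial sums of 10 markers, 5 of them listed at 0, were 1997 and 1538 in Ascl5Mut/Mut against 486 and 839 in Ascl5WT/WT, and 1296 and 977 in Ascl5Mut/WT against 467 and 850 in Ascl5WT/WT. Endothelial markers separating upwards were 2 in each comparison, and downwards 0 in Ascl5Mut/Mut and 1 in Ascl5Mut/WT. Pericyte and myeloid sums were higher in Ascl5Mut/Mut and overlapped in Ascl5Mut/WT, and skeletal muscle sums overlapped in both. Skeletal muscle markers stood out in Ascl5Mut/Mut replicate 1, which had 96854 against 4408 in replicate 2 and 543 and 13402 in Ascl5WT/WT. The part of these tissues in the Igfbp5 difference was not tested.

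No strand setting for the counting is given in the sources used here. Of the 50 features with the highest Ascl5WT/WT mean, 41 (82%) overlapped an exon on the opposite strand, against 24.2% of all features matched to the annotation and 51.2% and 51.1% of those tested in the tables. No exon of Igfbp5, or of 6 other members, overlaps one on the opposite strand, whereas Igfbp7 shares 85 bases with Polr2b. Reads of an antisense partner cannot be told apart there. Nor can they in the listed genes Igf2, Tsc2, Rps6kb1, Igf2bp3, Pik3r2 and Rptor, which also overlap an exon on the opposite strand. The same holds for Fchsd2, which shares 25 exon bases with Atg16l2. Ctgf and Cyr61 had no match in the annotation by symbol, and the cell type markers, Dlx1 among them, were not looked up. Their overlaps are therefore not known here. Other named genes overlap an opposite-strand locus without shared exon bases, such as Mas1 and Igf2r with Airn, and Igf1 with Igf1os. With the setting unknown, the lack of an opposite exon does not show that Igfbp5 reads came from its own strand. Whether reads were counted on the gene's own strand was not tested for any gene.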

How the data were processed

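Total RNA of maxillary first molars was made into libraries with a strand-keeping SMARTer kit, per the labels' protocols. The authors deposited normalized gene counts, a signal on a linear scale, in 2 separately normalized tables of 24972 genes, and used mm10 and DESeq2, per the submitters' processing notes. No aligner, annotation or strand setting is named in the sources used here. Low values were near whole read steps (within 0.1 step) for 83.9% to 93.4% of values per library, too few to recover reads, so no count model was run. Log2(normalized count + 120) values were tested with limma 3.58.1 (R 4.3.3), with an intensity trend and two-sided, in genes averaging at least 1000, calling at a Benjamini-Hochberg adjusted p under 0.05. Exon lengths and overlaps are from GENCODE M21 (bedtools 2.31.1). Alternatives varied pseudocount, filter, scaling, variance model and libraries. Members, lists, pseudocount and filter were chosen with earlier results of these data known, the last 2 after 15 combinations had been viewed. Besides the members, named genes were list genes called, separated past 2-fold in both comparisons or among the 6 most abundant, and the 5 most like Igfbp5. Between the tables, 11 damaged gene names could not be joined.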

Additional observations from a re-analysis of the deposited data

How the results depend on the processing

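The log2 fold change of Igfbp5 was above 0 in every setting run, which the separation of its groups fixed in advance. With all libraries it was 2.12 to 2.18 in Ascl5Mut/Mut, called in 6 of 11 alternatives (limma adjusted p 0.000242 to 0.314), and 1.87 to 1.92 in Ascl5Mut/WT, called in 9 of 11 (0.000644 to 0.559). The number of members called, 1 as reported, was 0 in Ascl5Mut/Mut with a pseudocount of 1, a minimum mean of 10, no minimum mean, both a pseudocount of 1 and a minimum mean of 10, or no intensity trend. In Ascl5Mut/WT it was 0 under the last 2 of these. It was 0 to 1 with 1 library left out in both comparisons. No other member was called in any of 118 fits of 12 fold changes, the lowest limma adjusted p being 0.332. Of all genes, 20 were called in Ascl5Mut/Mut and 13 in Ascl5Mut/WT. In Ascl5Mut/Mut the count was 4 with a pseudocount of 1, 1 with a minimum mean of 10 or none, 10 with a minimum mean of 500, 0 with both low settings or no trend, 42 with robust variance moderation, and 0 to 33 leaving out 1 library. In Ascl5Mut/WT it was 8 with a pseudocount of 1, 0 with both low settings or no trend, and 0 to 34 leaving out 1 library. A setting chosen after seeing the data recomputed the minimum mean over the 3 libraries left. It gave 0, 4, 22 and 74 calls in Ascl5Mut/Mut (without the mutant replicates, then the wild-type ones) and 2, 0, 43 and 66 in Ascl5Mut/WT, 0 to 1 members, and, without Ascl5WT/WT replicate 2, 1 gene of the pathway list in Ascl5Mut/Mut against 0 otherwise. The cause was not tested. Deviations of same-numbered libraries correlated at -0.013 over 2336 genes and 0.023 over 2370. Each value rests on 1 difference per genotype, so it cannot show whether replicate numbers pair the samples. With the number as a replicate block, 36 and 37 genes were called, and Igfbp5 remained called in both (limma adjusted p = 0.00395 and 0.000644). At this depth a gene at 0 in a library, as Igfbp6 was in all, is compatible with up to 3 reads there.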
